A study of Mus musculus with 3 samples.

Results

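The Zic genes Zic1, Zic2, Zic4 and Zic5 were examined in 3 lists of broad ATAC-seq peaks from mouse cells differentiated towards caudal epiblast. Every peak overlapping a gene body or the 50 kb on either side of it was taken. These windows held 32 of 129843 peaks in SOX2-ON and 30 of 131520 in SOX2-OFF, against 36 of 130348 in CEpiLC, at 4 of 21938 coding genes. ATAC-seq maps DNA that a transposase can reach, and a broad peak is a stretch over which its cuts exceed the local background.

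The cells derived from HM1 embryonic stem (ES) cells of strain 129, and each group was 1 sample collected at 72 h. SOX2-ON and SOX2-OFF were both Sox2-/- cells of the SOX2 TetON line, in which a doxycycline-inducible Sox2 cDNA sits in the Hprt locus and endogenous Sox2 has been ablated in picked clones. ES cells of that line were kept in doxycycline at 1 µg/ml, which was maintained through differentiation in SOX2-ON and withdrawn in SOX2-OFF. CEpiLC, for caudal epiblast-like cells, was the wild-type sample, from the HM1 TetON parent line and with no doxycycline. All 3 groups received 10 ng/ml bFGF and 5 µM LGK974, a blocker of WNT secretion, for 2 days, after which the WNT agonist CHIR99021 was added to the same factors until collection. Setting SOX2-ON beside SOX2-OFF asks how accessibility differs with doxycycline-driven SOX2 in 1 line, and CEpiLC gives the wild-type state. Only SOX2-ON was kept in doxycycline to collection, so an effect of doxycycline itself and one of SOX2 cannot be told apart.

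Zic genes encode zinc finger transcription factors related to the GLI family, the effectors of Hedgehog signalling. They lie in the genome as divergent pairs, and Zic1-Zic4 and Zic2-Zic5 are such pairs. In the embryo they are known for roles in the neural plate, the neural crest and the dorsal neural tube. Zic2 and Zic5 are also active in the epiblast and in pluripotent cells. Loss of ZIC2 causes holoprosencephaly, a failure of the forebrain to divide, and joint deletion of ZIC1 and ZIC4 is associated with a malformed cerebellum.

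At all 4 genes an annotated start lay inside a peak in every list, and the peaks over the Zic1, Zic2 and Zic5 starts and the first Zic4 start held similar ranks in the 3 samples. Other Zic4 starts and a few regions away from the starts differed more. Near Zic4 an intronic region of the noncoding gene Gm29478 ranked far lower in SOX2-ON than in the other samples. Near Zic5 a region beyond the 3′ end of the gene ranked higher in SOX2-ON. A region between Zic5 and the edge of its window was among the strongest SOX2-ON peaks of the genome. It ranked high in the other samples too. Large rank differences were common in the genome. Of regions shared by SOX2-ON and SOX2-OFF, 14.9% were at least 20 percentile points lower in SOX2-ON and 9.94% at least 20 higher. At the Zic loci these were 2 and 3 of 24 regions. Many of the 24 ranked too near the top of a list to be 20 points higher in another, so the shares are not strictly alike. With 1 sample in each group there was no replicate error, so no difference was tested, and every comparison is between libraries and not between conditions. In bulk samples, fewer cells with open DNA and less open DNA per cell cannot be told apart.

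The sequences at the centre of 6 regions are given first, as bases of the forward strand of GRCm38 (the build also called mm10). Each is 200 bases around the midpoint of a peak. Capitals mark matches, on either strand, to short motifs: ACAAAG or ACAATG for SOX factors, CTTTGAA or CTTTGAT for TCF/LEF, ATGCAAAT for OCT factors, CCTGCTG for ZIC, TAATCC for OTX, AGATAA for GATA factors, GGTGTGA for T-box and TTTATNG for CDX factors, where N is any base. The SOX and TCF/LEF motifs share most of their letters, but no position can match both. Regions were numbered along each window, A1 to A21 at Zic1-Zic4 and B1 to B23 at Zic2-Zic5. The first sequence, from the SOX2-ON peak of B3, is the centre of the strongest peak at either locus. B3 ranked high in all 3 lists.
B3, chr14:122416374-122416573: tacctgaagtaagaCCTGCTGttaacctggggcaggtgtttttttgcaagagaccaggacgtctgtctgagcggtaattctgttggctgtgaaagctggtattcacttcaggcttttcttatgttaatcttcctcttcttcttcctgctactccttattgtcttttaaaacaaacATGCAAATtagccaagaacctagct
The next is from the SOX2-ON peak of B13, which ranked higher in SOX2-ON.
B13, chr14:122453426-122453625: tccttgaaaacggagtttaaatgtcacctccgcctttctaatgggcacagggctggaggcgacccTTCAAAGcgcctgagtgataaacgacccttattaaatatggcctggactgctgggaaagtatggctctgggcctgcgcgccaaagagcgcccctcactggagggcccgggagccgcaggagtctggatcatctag
The third is from the SOX2-OFF peak of B22, a region without a peak in CEpiLC.
B22, chr14:122525544-122525743: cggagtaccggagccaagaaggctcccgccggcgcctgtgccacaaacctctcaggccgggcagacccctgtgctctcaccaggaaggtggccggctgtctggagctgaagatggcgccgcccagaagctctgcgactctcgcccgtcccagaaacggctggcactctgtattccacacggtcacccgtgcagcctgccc
The others lie downstream of Zic4. A17, from its SOX2-OFF peak, ranked lower in SOX2-ON, A19, from its SOX2-ON peak, ranked higher there, and A21, from its SOX2-OFF peak, had no peak in SOX2-ON.
A17, chr9:91405743-91405942: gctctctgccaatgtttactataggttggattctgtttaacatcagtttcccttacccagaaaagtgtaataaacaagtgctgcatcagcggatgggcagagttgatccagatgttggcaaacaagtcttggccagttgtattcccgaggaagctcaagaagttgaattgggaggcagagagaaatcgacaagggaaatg
A19, chr9:91414079-91414278: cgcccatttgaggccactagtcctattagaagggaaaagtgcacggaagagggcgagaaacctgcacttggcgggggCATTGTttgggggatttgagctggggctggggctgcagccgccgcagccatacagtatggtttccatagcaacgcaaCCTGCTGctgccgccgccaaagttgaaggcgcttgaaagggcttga
A21, chr9:91420319-91420518: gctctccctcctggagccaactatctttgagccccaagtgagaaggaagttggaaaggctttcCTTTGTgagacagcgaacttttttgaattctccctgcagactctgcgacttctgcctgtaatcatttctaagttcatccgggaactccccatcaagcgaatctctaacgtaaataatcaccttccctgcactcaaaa
B3 held 1 octamer and 1 ZIC match, A19 held 1 SOX and 1 ZIC match, A21 held 1 SOX match and B13 held 1 TCF/LEF match. None of the motifs was found in the windows of A17 and B22. B22 was rich in CG, with 15 CG dinucleotides and 67.0% G and C, against 2 CG and 42.0% in B3.

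Zic1 (ENSMUSG00000032368.14) lies at chr9:91358058-91365810 on the reverse strand, and Zic4 (ENSMUSG00000036972.14) lies at chr9:91362413-91389348 on the forward strand. Their annotated bodies overlap, so that most peaks in their windows were common to both genes and were counted once. The joint window of 131.291 kb held 16 peaks in SOX2-ON and 17 in SOX2-OFF, against 21 in CEpiLC. The higher CEpiLC count rested on weak peaks, since 10, 11 and 11 of these peaks were among the strongest 50000 of their list. With a −log10 q of at least 2 the counts were 13, 15 and 12, and with at least 5 they were 10, 10 and 9. A fixed q is not an equal cut, because fewer CEpiLC peaks of the whole list reached a high q. All peaks together covered 14.5, 17.8 and 19.4 kb of the window. Zic5 (ENSMUSG00000041703.7) lies at chr14:122456795-122465677 on the reverse strand, and Zic2 (ENSMUSG00000061524.8) lies at chr14:122475435-122479852 on the forward strand. Their joint window of 123.058 kb held 16 peaks in SOX2-ON and 13 in SOX2-OFF, against 15 in CEpiLC, covering 17, 19.2 and 17.7 kb. More of the Zic1-Zic4 window was therefore covered in CEpiLC than in SOX2-ON, although SOX2-ON covered 102 Mb of the whole genome and CEpiLC 93.7 Mb. SOX2-OFF covered 124 Mb, and its peaks were the widest, with a median of 741 bases against 621 in SOX2-ON and 526 in CEpiLC.

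**Figure D1:**
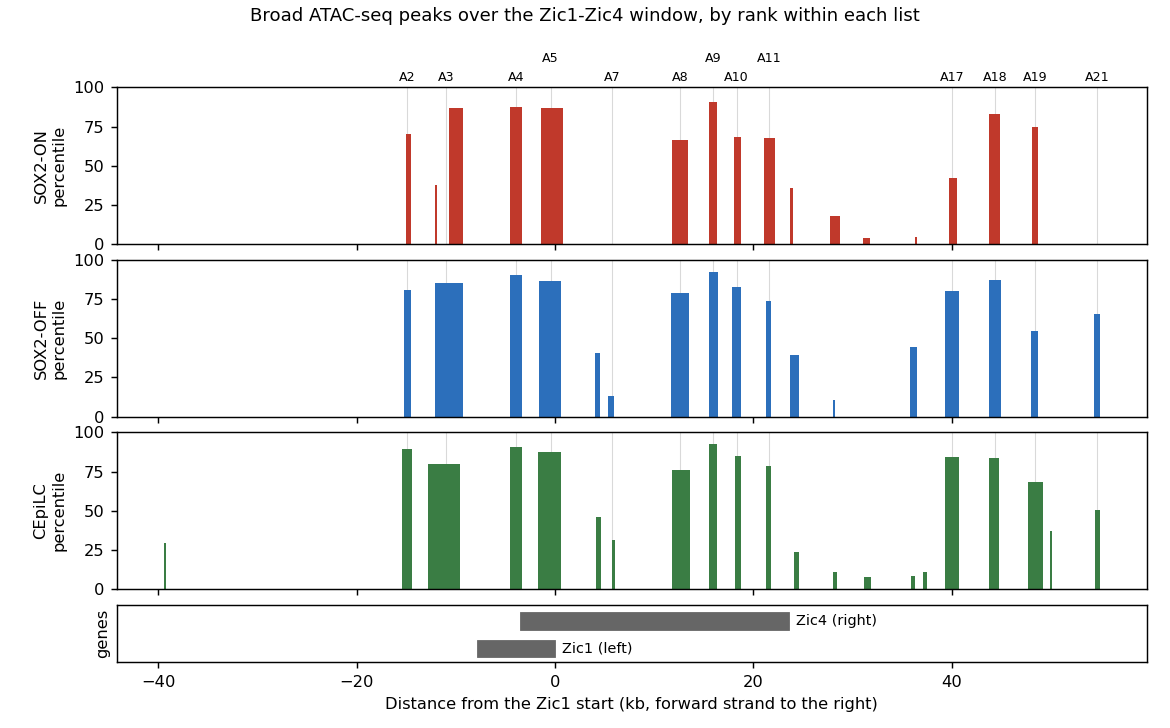
Peaks over the Zic1-Zic4 window in the 3 samples. Each bar spans a peak, the horizontal axis is the distance from the Zic1 start in kb, the bar height is the percentile of the peak within its own list, and grey boxes are gene bodies with the direction of transcription. Bars stand over the gene starts in all 3 panels, while A17 is low in SOX2-ON (42.2) and high in SOX2-OFF (80.1) and CEpiLC (84.4).

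Peaks were set side by side by rank within their own list. The −log10 p of a peak grows with sequencing depth, which is unknown here, so it was converted to a percentile, the share of peaks in the same list that were weaker. A percentile near 100 marks one of the strongest peaks of a sample.

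The Zic1 start lay in region A5 (chr9:91364128-91366583), which also covers Zic1 coding and untranslated sequence. Its percentile was 86.9 in SOX2-ON and 86.5 in SOX2-OFF, against 87.3 in CEpiLC. Its peaks were 2193, 2141 and 2236 bases wide, and their fold enrichment over the local background was 2.31, 1.98 and 2.04. The 3 samples thus differed by less than 1 percentile point at this start. Of 3 distinct annotated Zic1 starts, 2 were inside a peak in each list.

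Zic4 has 12 distinct annotated starts, spread over its body. Peaks covered 3 of them in SOX2-ON and 5 in SOX2-OFF, against 3 in CEpiLC. The first lay in region A4 (chr9:91361236-91362498), over Zic1 exons, with percentiles of 87.2 in SOX2-ON and 90.3 in SOX2-OFF, against 91.0 in CEpiLC. Another group lay in A8 (chr9:91377519-91379362), with percentiles of 66.4, 78.7 and 75.9 in the same order. Both regions therefore ranked lowest in SOX2-ON, A8 by 12.4 points relative to SOX2-OFF. The starts covered in SOX2-OFF only lay in A7 (chr9:91371180-91371885), a weak region of percentile 13.3 in SOX2-OFF and 31.3 in CEpiLC, with no peak in SOX2-ON. A6 (chr9:91369792-91370459), over a Zic4 exon, likewise had a peak in SOX2-OFF (40.8) and CEpiLC (46.3) and none in SOX2-ON.

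RefSeq promoter windows, which span 300 bases around a gene start, were available for Zic1, Zic4 and Zic5. The Zic1 window was covered by a peak over all 300 bases in each list. It held 31 CG dinucleotides, against a median of 7 over 32815 promoter windows. The Zic4 window (chr9:91368722-91369021), with 8 CG, was covered by no peak in any list. The Zic5 window, with 15 CG, was covered over 240 bases in SOX2-ON and 230 in SOX2-OFF, against 269 in CEpiLC. Over the genome, 53.5% of promoter windows were overlapped by a SOX2-ON peak, 54.9% by a SOX2-OFF peak and 54.0% by a CEpiLC peak. The Zic4 start of RefSeq was thus not detectably open at this depth, while peaks lay on either side of it.

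Of 2 distinct annotated Zic5 starts, 1 was inside a peak in each list. It lay in region B15 (chr14:122462897-122465877). Its percentile was 92.9 in SOX2-ON and 92.5 in SOX2-OFF, against 91.7 in CEpiLC, with fold enrichments of 3.19, 2.53 and 2.33. The peak was 2032 bases wide in SOX2-ON and 2550 in SOX2-OFF, against 2981 in CEpiLC. Rank hardly differed, while width was lowest in SOX2-ON and highest in CEpiLC. The upstream part of the Zic5 promoter, which ends short of the annotated gene, is shown on the reverse strand with CG in capitals. Of its 200 bases, 140 lay inside the SOX2-ON peak, 130 inside the SOX2-OFF peak and 169 inside the CEpiLC peak.
Zic5 promoter, chr14:122465709-122465908: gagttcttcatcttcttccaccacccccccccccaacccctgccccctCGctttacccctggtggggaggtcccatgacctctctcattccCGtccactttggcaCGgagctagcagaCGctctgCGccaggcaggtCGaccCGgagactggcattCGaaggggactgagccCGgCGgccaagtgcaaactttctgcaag
It held 10 CG, against a median of 4.0 over the same part of all promoters, and none of the motifs listed above. Of all promoters, 21.2% held the SOX motif in this part, 8.42% GATA, 7.65% CDX, 6.82% ZIC, 6.31% TCF/LEF, 5.22% OTX, 2.72% T-box and 1.32% OCT.

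Of 2 distinct annotated Zic2 starts, 1 was inside a peak in each list. It lay in region B18 (chr14:122473377-122476192), the strongest of the member starts. Its percentile was 95.7 in SOX2-ON and 95.6 in SOX2-OFF, against 93.6 in CEpiLC. The fold enrichment was 3.43, 2.73 and 2.41, and the peak was 2525, 2265 and 2816 bases wide. In SOX2-OFF it was the strongest peak of the window, at rank 5827 of the list. The SOX2-ON rank of 5629 was close to it, and the CEpiLC rank was 8385.

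The Zic starts ranked like those of related genes, where a gene counted if any of its annotated starts lay in a peak. In each list 4 of 4 Zic genes had a start inside a peak, whereas 70.4% of coding genes had one in SOX2-ON and 71.4% in SOX2-OFF, against 70.8% in CEpiLC. The median percentile of the strongest peak over a Zic start was 90.1 in SOX2-ON and 91.4 in SOX2-OFF, against 91.3 in CEpiLC. Over all coding genes with such a peak it was 94.1, 94.2 and 93.9. Among 12 genes of the neural plate and its border (Pax3, Pax6, Pax7, Msx1, Msx2, Tfap2a, Foxd3, Snai2, Sox9, Otx2, Gbx2 and Sox1), 11, 12 and 12 had a start inside a peak, with medians of 89.5, 89.2 and 88.2. All 6 GLI-type relatives (Gli1, Gli2, Gli3, Glis1, Glis2 and Glis3) had one in each list, with medians of 93.6, 92.8 and 92.7. The Zic medians thus lay below those of all coding genes with a peak, and only Zic2 in SOX2-ON and SOX2-OFF exceeded them.

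The Zic windows were more densely covered than those of most genes. Among 21938 coding genes, the covered share of the Zic1 window was at percentile 82.5 in SOX2-ON and 83.4 in SOX2-OFF, against 94.8 in CEpiLC. The Zic4 window was at 73.8, 75.6 and 88.9, and the Zic5 window at 85.5, 83.0 and 90.8. The Zic2 window was at 87.3, 81.0 and 86.2, and was the only one of the 4 that was highest in SOX2-ON. The windows of each pair share most of their span and their peaks, so the 4 values are not separate loci. The medians over the 4 genes were 84.0, 82.0 and 89.8, against 56.6, 59.1 and 62.6 for the neural plate and border genes and 44.8, 58.7 and 57.0 for the GLI-type relatives. Covered shares of all 4 Zic windows lay above those medians in each list, but both gene lists contained genes as densely covered, such as Sox1, a neural SOX gene, at 95.9 in SOX2-ON and Gli1, a Hedgehog target, at 93.5. The 7 caudal epiblast and epiblast genes T, Cdx1, Cdx2, Nkx1-2, Wnt3a, Fgf8 and Pou5f1 were covered about as densely as the Zic genes, with medians of 80.8, 85.8 and 86.2. Across the 3 samples, the coding genes with the pattern closest to Zic1-Zic4 were Gm47841, Birc5 and Shisal2a, at distances of 0.534, 0.826 and 0.930 percentile points. Those closest to Zic2-Zic5 were Sit1, Hinfp and Mybbp1a, at 0.800, 1.06 and 1.07.

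**Figure D2:**
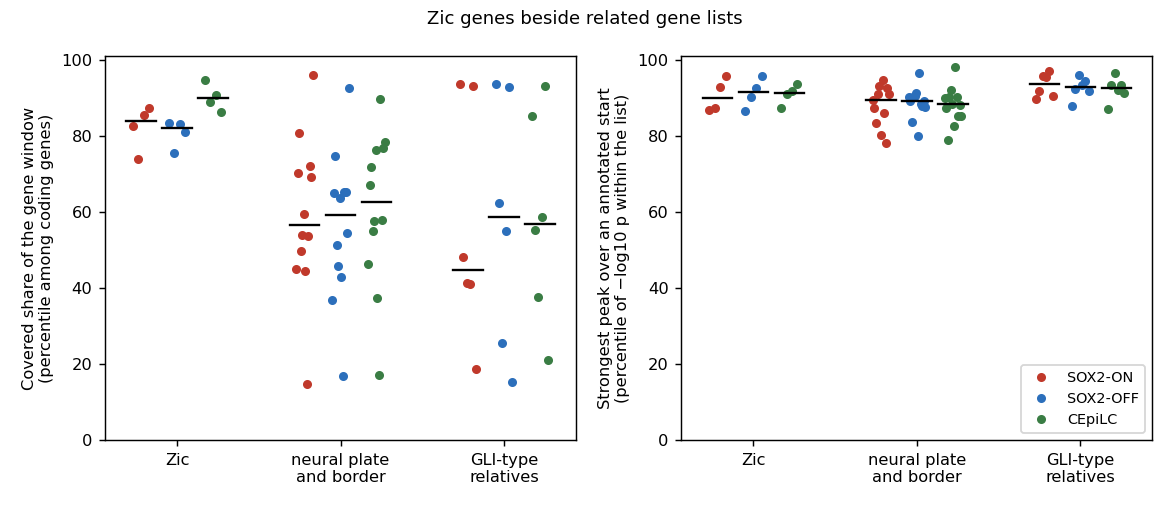
Zic genes beside the neural plate and border genes and the GLI-type relatives. The left vertical axis is the percentile of the covered share of the gene window among coding genes, the right one is the percentile of the strongest peak over an annotated start, each point is a gene in the sample given by its colour, and black lines are medians. Zic windows sit between 73.8 and 94.8 on the left, while the starts of the 3 groups overlap on the right.

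Overlapping peaks of the 3 lists were joined into regions, 21 at Zic1-Zic4 and 23 at Zic2-Zic5. Of these 44 regions, 23 had a peak in all 3 lists (52.3%, 95% exact Clopper-Pearson interval 36.7 to 67.5, which covers counting error only), against 27.0% of 219488 regions in the genome. The shared regions were 14 of 21 at Zic1-Zic4 and 9 of 23 at Zic2-Zic5. Among regions with a peak in the strongest 50000 of a list, 19 of 22 at the Zic loci had a peak in all 3, against 65.3% of 73321 in the genome.

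The regions missing from a list were mostly weak. At both loci together, 5 regions were in SOX2-ON only, 3 in SOX2-OFF only and 8 in CEpiLC only, and in the genome these patterns made up 16.9%, 15.1% and 20.3% of regions. Of these 16, 14 had a −log10 q below 2. A further 3 regions (A6, A7 and A21) had peaks in SOX2-OFF and CEpiLC only, a pattern of 6.92% of regions in the genome. B22 alone was in SOX2-ON and SOX2-OFF only, against 10.5%, and A14 alone was in SOX2-ON and CEpiLC only, against 3.28%. The loci differed in that 13 of the 16 single-list regions lay at Zic2-Zic5. A region with no peak was not detectable at this depth, which does not show that it was closed.

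Counted by peaks, 7 of 32 SOX2-ON peaks at the loci were absent from SOX2-OFF and 7 of 32 from CEpiLC, where absent means that under 10% of the peak was covered. The genome-wide shares were 35.0% and 48.8%. Of the SOX2-OFF peaks, 7 of 30 were absent from SOX2-ON and 4 of 30 from CEpiLC, against 38.0% and 44.3%. Of the CEpiLC peaks, 12 of 36 were absent from SOX2-ON and 9 of 36 from SOX2-OFF, against 48.4% and 40.9%. At Zic1-Zic4 all 17 SOX2-OFF peaks were found in CEpiLC, while 14 of the 17 were found in SOX2-ON.

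**Figure D3:**
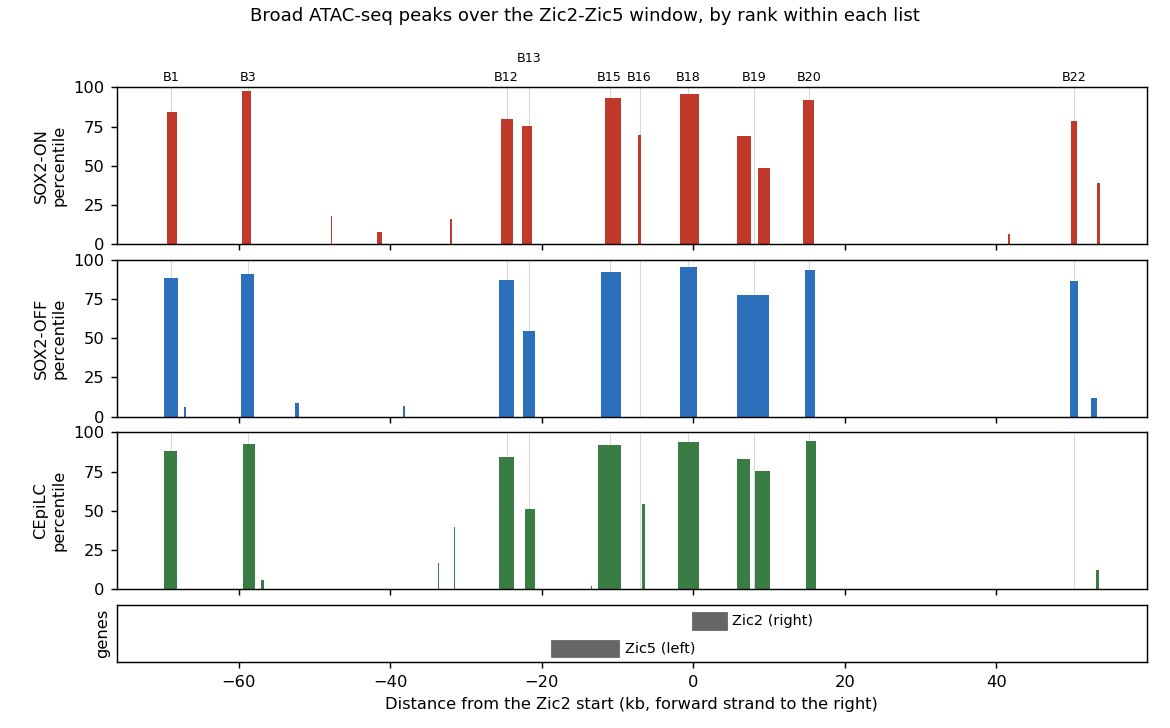
Peaks over the Zic2-Zic5 window in the 3 samples. Each bar spans a peak, the horizontal axis is the distance from the Zic2 start in kb, the bar height is the percentile of the peak within its own list, and grey boxes are gene bodies with the direction of transcription. B15, B18 and B20 stand at similar heights in all panels, and B22 is missing from CEpiLC.

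Among the named regions at Zic1-Zic4, SOX2-ON and SOX2-OFF differed most at A17 (chr9:91405132-91406554), whose sequence is given above. It lies 15784 bases beyond the Zic4 body, in a GENCODE intron of Gm29478. Its percentile was 42.2 in SOX2-ON and 80.1 in SOX2-OFF, against 84.4 in CEpiLC. The fold enrichment followed the same order, at 1.65, 2.18 and 2.27, and the peak was 779 bases wide in SOX2-ON and 1423 in SOX2-OFF, against 1346 in CEpiLC. SOX2-ON was therefore the low sample on all 3 measures. In the genome, the difference of −37.9 points between SOX2-ON and SOX2-OFF stood at percentile 4.33 of all regions shared by these lists, and that of −42.2 points from CEpiLC at percentile 4.17.

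Of the neighbouring regions in the same noncoding gene, A18 (chr9:91409537-91410761) was at 83.0 in SOX2-ON and 87.3 in SOX2-OFF, against 83.7 in CEpiLC. A19 (chr9:91413471-91414979), which held the SOX and ZIC matches, was at 75.0, 54.8 and 68.6, highest in SOX2-ON. A21 (chr9:91420117-91420721), with a SOX match, had no peak in SOX2-ON and was at 65.6 in SOX2-OFF and 50.5 in CEpiLC. Neighbouring regions thus took different orders across the samples. A15, a weak region outside the gene, was at 4.27, 44.7 and 8.69, highest in SOX2-OFF.

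Inside Zic4, several regions were lowest in SOX2-ON by smaller amounts. A9 (chr9:91381351-91382196) was the strongest peak of the window in each list, at 90.5 in SOX2-ON and 92.5 in SOX2-OFF, against 92.8 in CEpiLC. A10 (chr9:91383666-91384556), over Zic4 coding sequence, was at 68.5, 82.6 and 84.9. A11 (chr9:91386828-91387978), over the Zic4 untranslated region, was at 67.8, 73.8 and 78.6. On the other side of the pair, A2 (chr9:91350369-91351418), over an exon of the noncoding gene A730094K22Rik, was at 70.5, 81.1 and 89.2. A3 (chr9:91353048-91356529), 1529 bases beyond the Zic1 3′ end, took the opposite order, at 87.0, 85.5 and 79.8. Of the 14 regions that SOX2-ON and SOX2-OFF shared at this locus, the median difference was −3.75 points, against −1.65 in the genome.

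At Zic2-Zic5, B3 (chr14:122415774-122417612) lies 39183 bases beyond the Zic5 body, outside GENCODE genes. Its fold enrichment was 5.73 in SOX2-ON and 3.23 in SOX2-OFF, against 3.01 in CEpiLC. It ranked 3420 of 129843 in SOX2-ON and 11801 of 131520 in SOX2-OFF, against 9387 of 130348 in CEpiLC, which are percentiles of 97.4, 91.0 and 92.8. By −log10 p it was stronger than the Zic2 start in SOX2-ON and weaker in the other lists, whereas its fold enrichment exceeded that of the Zic2 start in all 3. The peak was narrower in SOX2-ON (1105 bases) than in SOX2-OFF (1682) and CEpiLC (1614). The rise of 6.34 points over SOX2-OFF stood at percentile 78.4 of shared regions. B3 was already at 91.0 in SOX2-OFF, near the top of the list, where few points remained to be gained. Shared regions of all ranks entered that comparison, so it cannot show how common such a rise was among regions ranked as high.

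B13 (chr14:122452857-122454581), with the TCF/LEF match, lies 2214 bases beyond the Zic5 3′ end. Its percentile was 75.3 in SOX2-ON and 54.6 in SOX2-OFF, against 51.4 in CEpiLC, with fold enrichments of 2.08, 1.50 and 1.62. SOX2-ON was the high sample on both measures. Its peak was not wider, at 1339 bases against 1629 in SOX2-OFF and 1353 in CEpiLC. The neighbouring B12 (chr14:122449824-122451775), over an exon and untranslated sequence of the annotated gene Gm5089, was at 80.1, 86.9 and 84.3, lowest in SOX2-ON. B23, a weak region at the far edge of the window, was at 39.2, 12.2 and 12.3. Its SOX2-ON peak began at 122528676 and its SOX2-OFF peak ended at 122528677. These 2 peaks barely overlapped, so their ranks belong to different stretches.

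B22 (chr14:122525124-122526164) lies 45272 bases beyond the Zic2 body and was the only strong region at either locus with no peak in CEpiLC but peaks in both Sox2-/- samples. Its percentile was 78.3 in SOX2-ON and 86.8 in SOX2-OFF, and its fold enrichment 2.45 and 2.76. The samples that had it both came from the SOX2 TetON line, so an effect of that line and one of its Sox2 genotype cannot be told apart here. Between Zic5 and Zic2, B16 (chr14:122468085-122468591) had a peak in SOX2-ON only, at percentile 69.3 and fold 1.57. The CEpiLC peak of B17 (chr14:122468627-122469108, percentile 54.1) began just past its end, so these single-list regions adjoin each other. SOX2-OFF had a peak in neither.

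B20 (chr14:122489927-122491571), over the annotated gene Gm10837, was at 91.8 in SOX2-ON and 93.6 in SOX2-OFF, against 94.3 in CEpiLC, and was the strongest CEpiLC peak of the locus. B1 (chr14:122405570-122407451), which reaches past the edge of the window, was at 84.5, 88.2 and 88.4. Ranks at B1 and B20 thus differed by a few points. B19 (chr14:122481237-122485572), downstream of Zic2, differed more, at 69.0, 77.5 and 83.1, and was called as 2 peaks in SOX2-ON and CEpiLC and as 1 in SOX2-OFF.

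**Figure D4:**
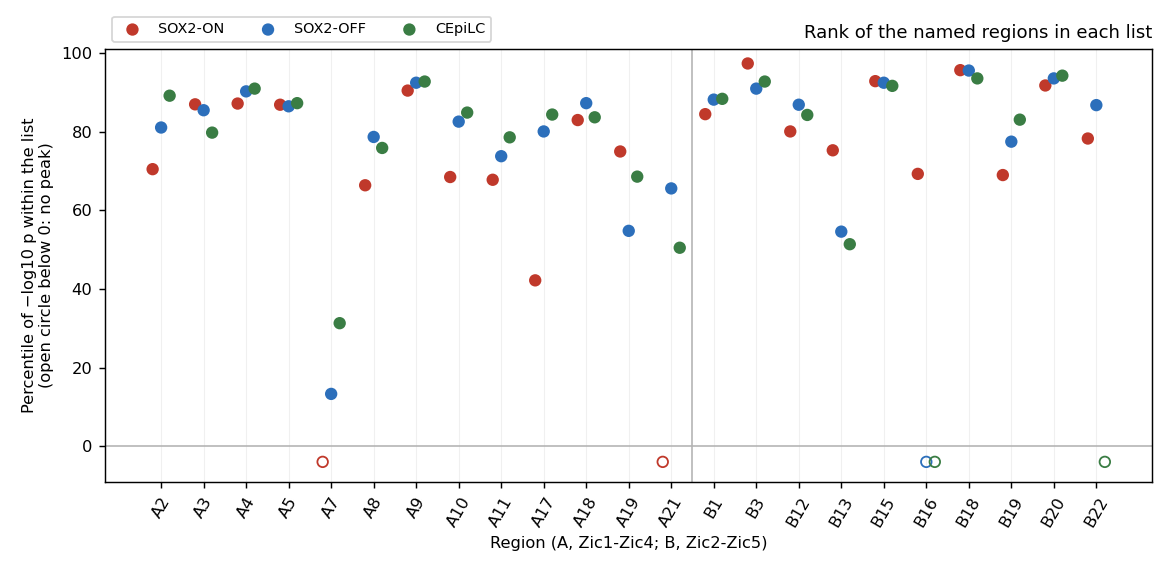
Percentile of −log10 p within the list (vertical axis) for 23 regions, ordered along each window on the horizontal axis. Filled circles are samples with a peak and open circles below 0 are samples without one. The 3 samples lie close at the starts A5, B15 and B18 and apart at A17, A19 and B13.

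Shifts of at least 20 percentile points were counted over all shared regions and set beside their share in the genome. Percentiles have a ceiling, so a region already near the top of one list could not rank 20 points higher in another. Many shared Zic regions ranked that high, so their counts and the genome shares are not strictly alike. Of 24 regions shared by SOX2-ON and SOX2-OFF, 3 (A19, B13 and B23) were at least 20 points higher in SOX2-ON, where the genome gave 9.94%, and 2 (A15 and A17) were at least 20 points lower, where it gave 14.9%. The SOX2-ON and SOX2-OFF peaks of B23 barely overlapped. The smallest of these shifts was 20.2 points, at A19, and the next smaller one was −14.2, at A10. Of 24 shared with CEpiLC, 2 (B13 and B23) were higher in SOX2-ON, against 11.4% in the genome, and 1 (A17) was lower, against 16.5%. At A12, 1 of these 24, the SOX2-ON and CEpiLC peaks had no base in common and were joined through the SOX2-OFF peak. Of 26 regions shared by SOX2-OFF and CEpiLC, 1 (A15) was higher in SOX2-OFF, against 12.1%, and 0 were lower, against 10.7%. Over the 23 regions in all lists, Spearman's rho of the percentiles was 0.903 between SOX2-ON and SOX2-OFF, 0.839 between SOX2-ON and CEpiLC and 0.936 between SOX2-OFF and CEpiLC. These are descriptions across regions that share libraries and neighbours. Ranking by fold enrichment left SOX2-ON the low sample at A17 (percentiles 45.4, 81.8 and 86.2) and the high sample at A19 (77.0, 55.4 and 64.6) and B13 (72.0, 27.3 and 20.4). Ranking by width left SOX2-ON low at A17 (60.2, 80.0 and 86.5) but not high at the others, with CEpiLC highest at A19 (53.4, 44.7 and 90.0) and SOX2-ON lowest at B13 (84.3, 85.6 and 86.7).

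**Figure D5:**
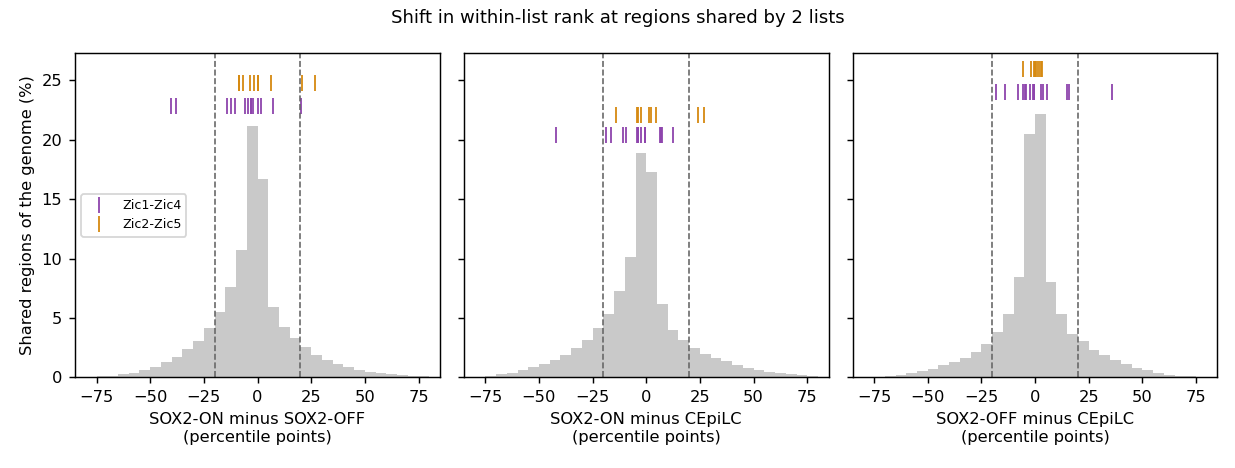
Differences in within-list percentile at regions shared by a pair of samples. Grey bars give the percent of shared regions in the genome in each bin of percentile points, ticks above them are regions at the Zic loci, and dashed lines mark 20 points either way. Most ticks fall between the dashed lines, and the A17 tick lies to the left of them in both panels that hold SOX2-ON.

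The short motifs were counted in the central 200 bases of every peak, where a match is a description and not a bound site. The SOX motif was in 10 of 32 SOX2-ON peaks at the Zic loci (31.2%), 7 of 30 SOX2-OFF peaks (23.3%) and 13 of 36 CEpiLC peaks (36.1%). It was in 25.5%, 21.9% and 20.6% of all peaks of the same lists. The TCF/LEF motif was in 3, 4 and 4 of the locus peaks, against 6.85%, 7.07% and 6.48% of all peaks, and the ZIC motif in 4, 2 and 4, against 8.53%, 8.45% and 9.21%. The octamer was in 2, 1 and 0 locus peaks, against 1.35%, 1.25% and 1.01%. The GATA motif was in 3, 4 and 3, against 9.29%, 8.58% and 7.12%, the CDX motif in 4, 1 and 2, against 6.43%, 6.71% and 6.30%, the OTX motif in 2, 1 and 0, against 5.07%, 5.51% and 4.94%, and the T-box motif in 1 of each, against 2.92%, 3.23% and 3.23%. These counts were small, and many peaks of the 3 lists cover the same bases.

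The lists themselves differed in strength. A −log10 q of at least 5 was reached by 37.7% of SOX2-ON peaks, 34.3% of SOX2-OFF peaks and 22.4% of CEpiLC peaks, and the part of this in the differences above was not tested. Peak density on chromosome 9 was 1.13, 1.18 and 1.21 times the median of the 16 autosomes other than 6, 8 and 11. The order is SOX2-ON, SOX2-OFF and CEpiLC, and on chromosome 14 the ratio was 0.811, 0.833 and 0.771. Regions shared by SOX2-ON and SOX2-OFF numbered 82323, and 55407 outside chromosomes 6, 8 and 11. Those shared by SOX2-ON and CEpiLC numbered 66481 and 51431. The percentiles of covered share included genes on these chromosomes, and the within-list percentiles of peaks included peaks on them. A start of each of the 7 caudal epiblast and epiblast genes named above was inside a peak in every list, against 1, 2 and 1 of 5 genes of other cell types. Of all coding genes, 70.4%, 71.4% and 70.8% had one, and the count of 7 does not separate the samples. The median percentile of these 7 genes was 84.5 in SOX2-ON and 89.6 in SOX2-OFF, against 89.4 in CEpiLC. The Sox2 start had percentiles of 92.5, 91.0 and 90.4. Reads from the transgene cDNA can align there, so this peak was no check of the labels.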

How the data were processed

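ATAC-seq of 50000 cells per sample, with at most 12 PCR cycles, gave 1 library in each of 3 groups, taken from the labelled genotype and doxycycline treatment. The authors trimmed and aligned reads to mm10 with BWA, removed mitochondrial reads and called broad peaks in each sample with MACS2 (version not given in the sources used here). The deposited fold enrichment of a peak is a ratio to local background, and the deposited −log10 p and −log10 q come from the same caller. Read totals are not used here and depth is unknown, so values were set side by side as within-list percentiles of −log10 p. Peaks overlapping by at least 1 base were joined into regions, so peaks of different lists in a region need not overlap each other directly. Gene models came from GENCODE on GRCm38 and promoter windows from RefSeq (GRCm38.p6), where 3 of the 4 genes had an entry.

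Regions were named if they covered a member start, reached a −log10 q of 5 in a list, or were missing from a list while among the strongest 50000 of another. The 3 similar genes per locus had the smallest Euclidean distance over the percentiles of covered share. The members, lists and motifs were chosen with earlier results of these data known. Python 3.11.15, pandas 2.3.3, numpy 2.4.6 and scipy 1.17.1 were used, and the joining, overlap and rank steps were tested on simulated data. Alternatives were a stricter q, a window of 10 kb, other overlaps and ranking by fold enrichment, by width or outside chromosomes 6, 8 and 11.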

Additional observations from a re-analysis of the deposited data

How the results depend on the processing

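No paired analysis was possible because there was 1 sample per group, and no replicate could be left out. With −log10 q of at least 5, the Zic1-Zic4 window held 10 peaks in SOX2-ON and 10 in SOX2-OFF, against 9 in CEpiLC, and the Zic2-Zic5 window held 10, 8 and 7. Regions in all 3 lists at Zic1-Zic4 then fell to 8. With −log10 q of at least 2, the Zic1-Zic4 window held 13 SOX2-ON, 15 SOX2-OFF and 12 CEpiLC peaks, so that CEpiLC went from the most peaks to the fewest. A fixed q depends on the strength of each list. Among the strongest 50000 peaks of each list the counts were 10, 11 and 11, and CEpiLC was not the lowest. With 10 kb around the genes, CEpiLC had 13 peaks at Zic1-Zic4, and Zic2-Zic5 held 7, 5 and 8 peaks, with 5 regions in all 3 lists. With −log10 q of at least 2 in both lists, 92.0% of SOX2-ON locus peaks were found in SOX2-OFF, against 78.1% before, while 90.9% and 95.5% of CEpiLC peaks were found in SOX2-ON and SOX2-OFF, against 66.7% and 75.0%. Requiring 1 base or 50% of overlap kept the pairwise shares within their intervals. Ranked by fold enrichment, 1 of 24 regions was at least 20 points higher and 2 were lower in SOX2-ON than in CEpiLC (12.8% and 16.5% in the genome), and 1 of 26 was lower in SOX2-OFF than in CEpiLC (11.3%). Ranked by width, 5 of 24 regions were lower in SOX2-ON than in CEpiLC (17.5% in the genome) and 3 of 26 in SOX2-OFF than in CEpiLC (17%), and SOX2-ON was no longer the high sample at A19 and B13. Outside chromosomes 6, 8 and 11, 3 of 24 were lower in SOX2-ON than in CEpiLC (20.9%). Apart from the smaller sets that the stricter q and the narrower window leave, the cause was not tested. Single percentiles moved under other rankings more often than not, so small differences between samples rest on the measure of rank.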
